A study of Mus musculus with 6 samples.

Results

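The cytosolic ribosomal protein genes, which code for the protein parts of the ribosomes that translate messenger RNA in the cytoplasm, were compared between livers of mice given vehicle and livers of mice given iD1. Members were the genes of the deposited count table whose symbols start with Rpl or Rps followed by a number, with an optional paralog letter or digit, together with Rpsa, Rplp0, Rplp1 and Rplp2. Symbols with the suffix used for numbered pseudogenes and the kinases named Rps6k were left out. The rule found 89 members among the 34866 genes of the table. Of these, 83 were annotated as protein-coding and 6 as processed pseudogenes (Rps4l, Rps3a2, Rps3a3, Rpl6l, Rpl32l and Rps12l1). Enough counts for a test were found in 83 members, and the other 6 (Rps3a3, Rpl39l, Rpl6l, Rpl10l, Rpl32l and Rpl3l) were at or near 0.

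RNA was taken from whole livers of male C57BL/6 mice, 8 weeks old, kept with free access to food and water and injected intraperitoneally. The vehicle group and the iD1 group held 3 libraries each. The sources used here give no dose, no time after injection and no structure for iD1, a compound known by its code name, and the vehicle samples carry the word untreated in the field for treatment. They do not say whether each library came from a separate mouse, so the p-values measure the spread between these libraries, which may in part be technical. Vehicle libraries are called replicate 1, replicate 2 and the unnumbered replicate, because the number on the last column matched no sample title.

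A cytosolic ribosome has a small subunit, which holds the messenger RNA and reads its codons, and a large subunit, which joins the amino acids. Each subunit is assembled in the nucleolus from ribosomal RNA and from proteins made in the cytoplasm and imported, and most of these proteins are needed in equal copy number. Messenger RNAs of vertebrate ribosomal proteins begin with a C followed by a run of pyrimidines, the terminal oligopyrimidine (TOP) tract, through which the growth-regulating kinase complex mTORC1 controls their translation together with the RNA-binding protein Larp1. That control acts mainly on translation, which RNA sequencing does not measure.

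The libraries held between 23515571 and 37613549 estimated counts. The scaling factors of the trimmed mean of M values (TMM), by which library sizes were multiplied, were 1.01 to 1.11 in vehicle and 0.878 to 1.01 in iD1. Mitochondrially encoded genes held 10.6% to 13.6% of the counts in vehicle and 8.68% to 10.3% in iD1. The summed level of 7 hepatocyte markers was 72300 to 96300 CPM (counts scaled to 1000000 per library) in vehicle and 93700 to 104000 CPM in iD1, and 3 of the 7 passed the test as higher. Among 9 lists of cell type markers, the summed levels of the groups stood apart only for neutrophils, at 1.21 to 1.38 CPM in vehicle and 3.51 to 11.3 CPM in iD1, where 3 of 4 tested markers were higher. No listed marker was at 0 in every library. The part of these differences in the results below was not tested, and in bulk tissue fewer cells of a type and less RNA per cell cannot be told apart.

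The annotated start regions of the members were searched for runs of the kind that opens a TOP messenger RNA. A C followed by at least 7 further letters that were all C or T, with the first C of the unbroken run standing between 10 bases before and 20 bases after an annotated transcription start, was searched for on the sense strand of RefSeq promoters (GRCm38.p6). Such a run was found in 24 of the 64 members with a promoter in that table (37.5%), against 3101 of all 27025 genes of the table (11.5%). Longer runs whose first C lies further upstream and which reach into this range, as in Rpl7a, Rpl34 and Rpl19, are not among these, and with them the numbers were 27 members (42.2%) and 3349 of all genes (12.4%). Under the first definition a run was found in 4 of 12 other known TOP transcripts (33.3%) and in 8 of 69 mitochondrial ribosomal protein genes (11.6%). The match describes letters at an annotated start, which can differ from the start used in liver. The 8 windows below hold 10 bases before and 20 bases from the start, read 5′ to 3′, with the run in capitals. They are shown because they cover the substrate of S6 kinase (Rps6), members with high or middle fold changes (Rps9, Rplp2, Rpl22l1, Rpl15, Rpl27a and Rps18) and the member with the lowest fold change among well-measured ones (Rpl7l1), whose window has no run. Runs are more frequent among these 8 windows than among all members, so the choice does not show how runs and fold changes go together.
Rps6, chr4:86857348-86857377, minus strand: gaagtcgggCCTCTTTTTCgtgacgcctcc
Rps9, chr7:3704031-3704060, plus strand: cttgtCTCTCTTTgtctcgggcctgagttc
Rps18, chr17:33955646-33955675, minus strand: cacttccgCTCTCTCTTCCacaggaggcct
Rplp2, chr7:141447641-141447670, plus strand: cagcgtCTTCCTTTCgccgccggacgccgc
Rpl15, chr14:18270967-18270996, minus strand: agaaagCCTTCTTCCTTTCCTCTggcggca
Rpl27a, chr7:109519185-109519214, plus strand: cgtgagCTCCTCCCTTTTCCCTTTCTgcca
Rpl22l1, chr3:28805498-28805527, plus strand: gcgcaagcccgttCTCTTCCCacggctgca
Rpl7l1, chr17:46782637-46782666, minus strand: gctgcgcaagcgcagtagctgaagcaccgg

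With TMM scaling, no ribosomal protein transcript passed the test for a change with iD1, and most had an interval that lay within 1.5-fold of vehicle. By edgeR's quasi-likelihood F test with p-values adjusted by Benjamini-Hochberg across the 13718 genes tested, 0 of 83 members passed the threshold of 0.05, where 2293 genes passed across the table (16.7%; 8.42% higher and 8.30% lower). Without adjustment, 3 of 83 members had a p under 0.05, against 31.3% of all genes. DESeq2 and limma-voom also called 0 members, with 3 and 4 at an unadjusted p under 0.05. At an adjusted p of 0.01, 0 members and 825 genes (6.01%) passed. The median log2 fold change of the members was 0.14, beside 0.00 over all tested genes, and 79 members had a value above 0 and 4 a value below 0. These signs depended on the scaling. With library size alone, 13 were above 0 and 70 below, the median was -0.07, and that of all genes was -0.20.

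The intervals describe how far these transcripts could have moved given TMM scaling. They leave out the uncertainty of the scaling itself, and they were not counted under another scaling. The 95% interval of the log2 fold change lay within a 1.5-fold change in either direction for 74 of 83 members (89.2%), where 36.2% of all tested genes had such an interval. The 9 others were Rps4l, Rps9, Rps12, Rps27, Rps3a2, Rplp2, Rpl36, Rpl22l1 and Rpl7l1. The members are abundant transcripts: the median mean level was 92.9 CPM for the members and 9.96 CPM for all tested genes, and the median standard error was 0.14 and 0.17. A member with the median standard error would have passed the test at a log2 difference of 0.47, which is 1.38-fold. Among the 82 members with at least 1 CPM on average, no interval reached below -0.63 or above 0.88.

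**Figure D1:**
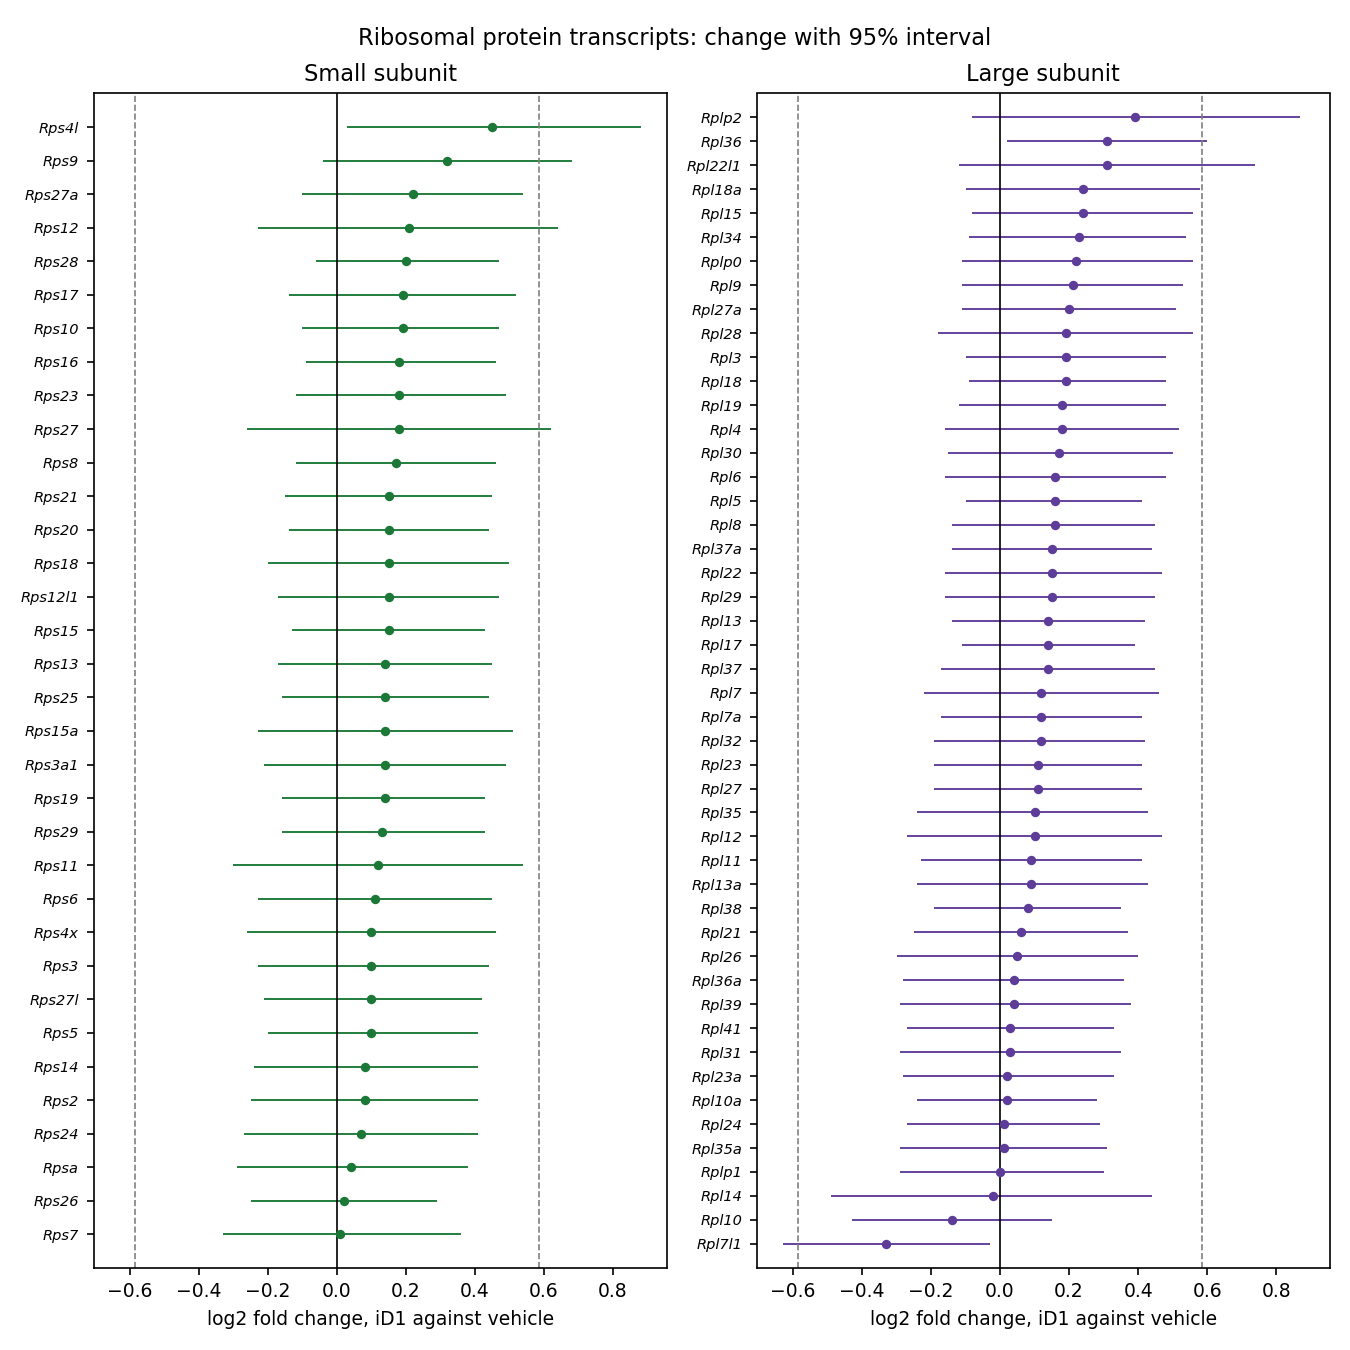
Log2 fold change of each tested small subunit (left) and large subunit (right) gene, iD1 against vehicle, with TMM scaling; points are estimates, bars are 95% intervals, and dashed lines mark a 1.5-fold change. Most points lie a little right of 0, and with library size alone 70 of the 83 fall below 0; Rps3a2, at under 1.5 CPM in every library, is left out.

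The members differed little from each other in their fold change. The SD of the log2 fold change was 0.21 over the 83 members and 0.08 over the 77 protein-coding members without the paralogs, which ran from -0.14 for Rpl10 to 0.39 for Rplp2. Over all tested genes the SD was 0.67. Only 3 of 83 members (3.61%) had a log2 fold change over 0.35 in size, beside 41.4% of all genes. Mitochondrial ribosomal proteins, whose ribosomes translate the mitochondrial genome, gave a median of 0.01 and an SD of 0.29 over 78 genes. Of these, 1 was higher and 7 were lower (10.3% called, beside 16.7% of all tested genes). Proteasome subunits, another large and abundant complex, gave a median of 0.16 and an SD of 0.23 over 38 tested genes. Of these, 1 was higher and 1 lower (5.26% called).

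**Figure D2:**
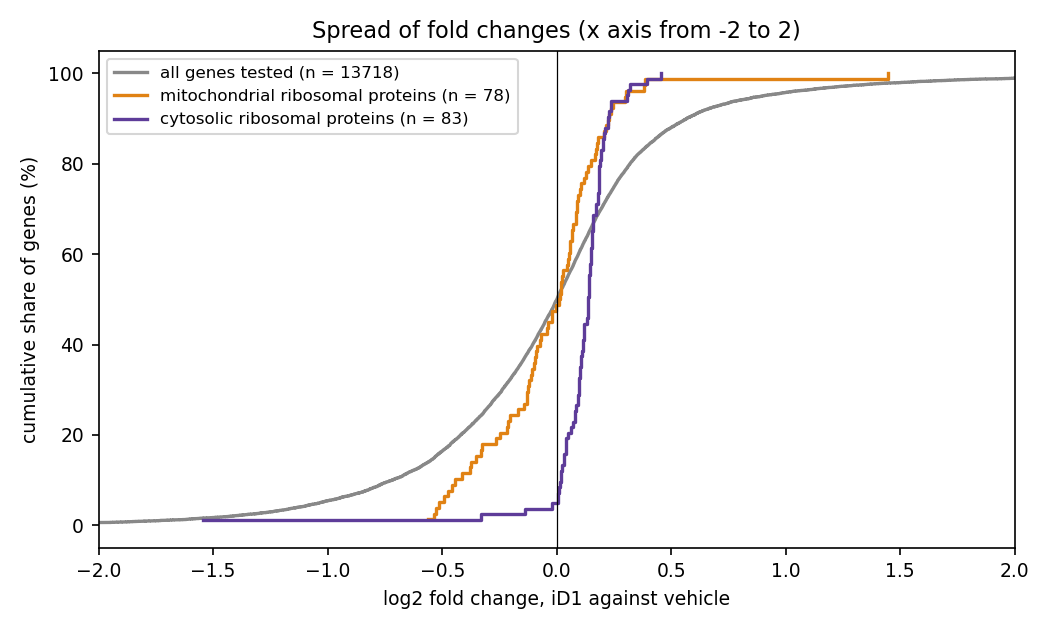
Cumulative share of genes (y axis, percent) with a log2 fold change up to the value on the x axis, for the 83 cytosolic and 78 mitochondrial ribosomal protein genes and all 13718 tested genes. The curve of the cytosolic genes climbs steeply around its median of 0.14, and the curve of all genes spreads widely around 0.

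The small subunit members gave 0 of 35 called, a median log2 fold change of 0.14 and 34 values above 0. In all 35, the vehicle and iD1 values overlapped. Rps2, at the messenger RNA entry channel, had 520, 407 and 423 CPM in vehicle replicates 1, 2 and the unnumbered replicate, and 471, 495 and 462 CPM in iD1 replicates 1 to 3. The iD1 values all lay inside the vehicle range, and the log2 fold change was 0.08 (SE 0.15, adjusted p = 0.751).

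Rps6, the protein that S6 kinases phosphorylate downstream of mTORC1, had 99, 68.7 and 88.5 CPM in vehicle and 83.0, 101 and 93.1 CPM in iD1. Only vehicle replicate 2 stood low, and the log2 fold change was 0.11 (SE 0.15, adjusted p = 0.659). Rps3, which lies at the messenger RNA entry site and also has a role in DNA repair, had 186, 176 and 210 CPM in vehicle and 172, 238 and 205 CPM in iD1, so that iD1 held both the lowest and the highest library (log2 fold change 0.10, SE 0.15). Rps19, the gene most often mutated in Diamond-Blackfan anaemia, had 100, 83.2 and 100 CPM in vehicle and 93.1, 114 and 104 CPM in iD1 (log2 fold change 0.14, SE 0.13).

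Rps27a, which is made as a fusion with ubiquitin, had 65.8, 56.8 and 75 CPM in vehicle and 68.0, 88.1 and 74.5 CPM in iD1, with a log2 fold change of 0.22 (SE 0.14, adjusted p = 0.325). Rpsa, also known as the laminin receptor precursor, had 359, 303 and 375 CPM in vehicle and 315, 393 and 359 CPM in iD1 (log2 fold change 0.04, SE 0.15). In both genes vehicle replicate 2 was the lowest library and iD1 replicate 2 the highest. Rps9, named after its values were seen as the highest coding small subunit member, had 219, 156 and 186 CPM in vehicle and 209, 264 and 227 CPM in iD1. Its iD1 replicate 1 lay below vehicle replicate 1, and its log2 fold change of 0.32 (SE 0.16) had an adjusted p of 0.209.

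The large subunit members gave 0 of 48 called, a median log2 fold change of 0.13, 45 values above 0 and 3 below. The groups did not overlap in 5 of them, which are the only such members among the 83 (6.02%, beside 37.2% of all tested genes). With upper-quartile factors 1 member had groups apart. With 1 library fewer it was 16, 7 and 20 when vehicle replicate 1, vehicle replicate 2 or the unnumbered one was left out (19.0%, 8.33% and 24.1% of the members tested), and 28, 6 and 6 when iD1 replicate 1, 2 or 3 was (33.3%, 7.14% and 7.14%). The share over all genes was then 43.5% to 50.8%. The 5 with TMM were Rpl5, Rpl17, Rpl19 and Rpl36, where every iD1 library was above every vehicle library, and Rpl7l1, where every iD1 library was below. With the counts of pseudogene copies added to the coding genes, as described below, 2 of 81 families had groups apart (2.47%, beside 37.4% of all genes). These were Rpl36 and Rpl7l1, and the groups of Rpl5, Rpl17 and Rpl19 then overlapped. With library size alone in place of TMM, the fold changes of Rpl5 and Rpl7l1 were both below 0, at -0.04 and -0.54.

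Rpl5 and Rpl11 travel with the 5S ribosomal RNA into the large subunit and, when assembly fails, bind the p53 inhibitor MDM2. Rpl5 had 22.3, 18.4 and 20.7 CPM in vehicle and 23.4, 22.5 and 22.7 CPM in iD1. The gap between the groups was narrow, and the log2 fold change of 0.16 (SE 0.11) had an adjusted p of 0.379. On the other strand, the annotated gene Fam69a shares 953 bases with the exons of Rpl5, and the counting strand was not given. Rpl11 had 96.6, 76.5 and 96.5 CPM in vehicle and 84.2, 109 and 93.8 CPM in iD1 (log2 fold change 0.09, SE 0.14), with overlapping groups.

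Rpl36, a large subunit protein singled out here because its groups stood apart, had 71.2, 68.3 and 79.3 CPM in vehicle and 81.0, 104 and 86.4 CPM in iD1. Its log2 fold change was 0.31 (SE 0.13), and edgeR's adjusted p was 0.137 (0.0391 before adjustment). Rpl17 and Rpl19, also singled out for this, had log2 fold changes of 0.14 (SE 0.11) and 0.18 (SE 0.13). None of these genes passed the test.

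Rpl13a, which can leave the ribosome in interferon-treated cells and repress translation of inflammatory messenger RNAs, had 233, 193 and 244 CPM in vehicle and 220, 274 and 221 CPM in iD1 (log2 fold change 0.09, SE 0.15). An annotated gene on the same strand, Gm45713, covers 621 bases of its exons, so its level cannot be separated from that gene. Other members share exon bases with annotated genes too, such as Rpl24 (Gm28037, 484 bases) and Rps10 (RPS10-NUDT3, 475 bases) on the same strand. Rpl10a, found on only part of the ribosomes in some cells, had 33.1, 27.4 and 30.5 CPM in vehicle and 29.2, 31 and 32.2 CPM in iD1 (log2 fold change 0.02, SE 0.12). Rpl38, needed for translation of a subset of Hox messenger RNAs in embryos, had 29.3, 23.9 and 27.8 CPM in vehicle and 29.1, 29.7 and 26.7 CPM in iD1 (log2 fold change 0.08, SE 0.12). In Rpl13a, Rpl10a and Rpl38 the groups overlapped.

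The acidic stalk of the large subunit, which recruits elongation factors, is built on Rplp0 and Rpl12 and carries Rplp1 and Rplp2. None of the 4 genes was called. Rplp0 had 249, 258 and 288 CPM in vehicle and 271, 358 and 301 CPM in iD1 (log2 fold change 0.22, SE 0.15, adjusted p = 0.335). Rplp1 had 261, 236 and 274 CPM in vehicle and 243, 282 and 249 CPM in iD1, and its log2 fold change was 0.00 (SE 0.13).

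Rplp2, the partner of Rplp1 in the stalk dimers, was the coding member with the highest fold change. It had 97.8, 54.8 and 61.5 CPM in vehicle and 103, 95.3 and 82.4 CPM in iD1. Vehicle replicate 1 lay among the iD1 libraries and the other vehicle libraries lay below them, and the log2 fold change was 0.39 (SE 0.21, adjusted p = 0.239). Without vehicle replicate 1 it was 0.69, with an adjusted p of 0.0227 by edgeR. The 5 other fits without 1 library did not call it, with values down to 0.23 and an adjusted p of up to 0.526. With library size alone it was 0.19 (adjusted p = 0.614 by edgeR). With GC and length trends removed it was 0.26 (adjusted p = 0.437 by edgeR).

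Some ribosomal proteins have paralogs encoded by separate genes, several of them restricted to particular tissues, and 3 of these were below the filter for testing in these livers. Rpl3l, known from heart and skeletal muscle, had 7 counts in all libraries together, Rpl10l, known from testis, had 3, and Rpl39l, also known from testis, had 2. Their parent genes Rpl3, Rpl10 and Rpl39 had 27774, 5142 and 10286 counts. The pseudogene-type members Rpl6l, Rpl32l and Rps3a3 had 23, 5 and 52 counts, and no fold change is given for any of these.

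Rpl7l1, the paralog of Rpl7, had the lowest fold change among members with at least 1 CPM on average. It had 55.9, 53.8 and 61.4 CPM in vehicle and 41.9, 53.4 and 40.6 CPM in iD1. All iD1 libraries were lower, although iD1 replicate 2 came within 1 CPM of vehicle replicate 2, and the log2 fold change was -0.33 (SE 0.13), with an adjusted p of 0.124 by edgeR (0.0336 before adjustment). Without iD1 replicate 2 it was -0.47, with an adjusted p of 0.0432 by edgeR. The 5 other fits without 1 library did not call it, with values as small in size as -0.25 and an adjusted p of up to 0.337. With library size alone it was -0.54, with an adjusted p of 0.0171 by edgeR, where the median of all genes was -0.2. Rpl7 itself had 249, 214 and 279 CPM in vehicle and 235, 301 and 270 CPM in iD1, and its log2 fold change was 0.12 (SE 0.15).

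Rpl22l1, which shares its fold with the RNA-binding protein Rpl22, had 24.6, 19.8 and 27.3 CPM in vehicle and 22.2, 36.6 and 29.9 CPM in iD1 (log2 fold change 0.31, SE 0.19, adjusted p = 0.306). Rpl22 had a log2 fold change of 0.15 (SE 0.14). Rps27l, a p53-responsive paralog of Rps27, had 98.5, 75.3 and 99.6 CPM in vehicle and 88.8, 108 and 97.2 CPM in iD1 (log2 fold change 0.10, SE 0.14). The groups of both paralogs overlapped.

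Rps4l, annotated as a transcribed processed pseudogene of the Rps4x family, had 11.5, 8.41 and 7.26 CPM in vehicle and 10.8, 11.8 and 14.6 CPM in iD1. Its log2 fold change of 0.45 (SE 0.19) was the highest of all members, with an adjusted p of 0.135 by edgeR (0.0384 before adjustment). Vehicle replicate 1 overlapped the iD1 libraries, and without it the log2 fold change was 0.66, with an adjusted p of 0.0472 by edgeR. The 5 other fits without 1 library did not call Rps4l, with values down to 0.32 and an adjusted p of up to 0.353. With library size alone its log2 fold change was 0.24 (adjusted p = 0.459 by edgeR). Rps4x had 210, 194 and 253 CPM in vehicle and 198, 270 and 233 CPM in iD1 (log2 fold change 0.10, SE 0.16). Rps3a2 had at most 1.47 CPM in a library and 92 counts in all, so that its log2 fold change of -1.55 (SE 1.38) carries almost no information.

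On a scale of level per transcript length, summing to the same total in each library, the most abundant members were Rplp1 at 702 (libraries from 629 to 763), Rps2 at 656 (590 to 787) and Rpl41, the shortest ribosomal protein, at 574 (514 to 645). The ranges of Rplp1 and Rps2 overlapped, as did those of Rps2 and Rpl41. The lowest tested members were Rps3a2 at 0.878, Rpl12 at 6.19 and Rpl5 at 14.4. Levels of paralogs and parents on the same scale were 53.5 for Rpl7l1 and 300 for Rpl7, 65.0 for Rpl22l1 and 247 for Rpl22, and 15.4 for Rps4l and 314 for Rps4x. Rps27l, at 223, was listed above Rps27, at 14.8, but most counts of the Rps27 family stood in a pseudogene, as follows.

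Ribosomal protein genes have many processed pseudogenes, near-copies of the messenger RNA scattered through the genome, and reads can be shared out among them. A sequence search found 1389 annotated pseudogenes that resembled a coding member over most of their length, for 80 of the 83 coding members, and 1094 of them held counts. In 27 of these families the coding gene held under 50% of the family's counts, in 44 under 90%, and the median was 85%. At least 1 library had a value that was not whole in 82 of 83 tested members, beside 57.6% of all tested genes.

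The lowest levels listed above belong to such families. Rpl12 held 3.64% of its family's counts, 1008 against 26703 in copies, of which Gm10275, 100% identical over the aligned stretch, held 24101. Rpl5 held 7.30%, with 49090 counts in Gm15500, and Rps27 held 7.78%, with 7914 counts in Gm17241. Rps12 held 12.0%, with 16169 counts in Rps12l1, a member that is itself annotated as a pseudogene. Rps6 held 33.0%, with 32054 counts in Rps6-ps4. How many of the copies' counts came from the coding gene cannot be told apart from these values.

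**Figure D3:**
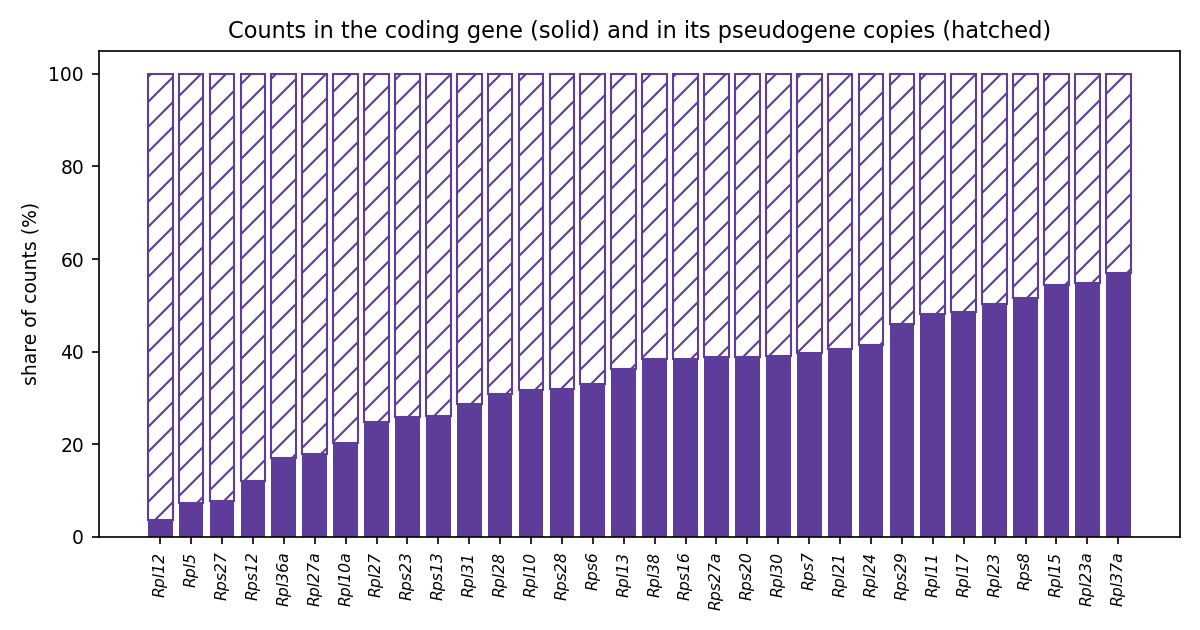
Share of a family's counts (y axis, percent) held by the coding gene (solid) and by its pseudogene copies (hatched), over all 6 libraries, for the 32 coding members (x axis) that held under 60%. Rpl12, Rpl5 and Rps27 held under 8% of their families' counts.

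With the counts of the copies added to their coding gene, 0 of 81 families passed the edgeR test, 3 had an unadjusted p under 0.05, and the median log2 fold change stayed at 0.14 with a range from -0.33 for Rpl7l1 to 0.45 for Rps4l. On the scale of level per length, Rpl12 stood at 6.19 alone and 167 with its copies, and Rpl5 at 14.4 alone and 195 with its copies. Over the 77 coding members without paralogs, the highest level was 113 times the lowest without copies and 18.4 times with them, and the ratio of the upper to the lower quartile went from 2.70 to 1.56. The lowest with copies was Rps20 at 38.3, named after its values were seen. Its level was divided by a length of 3706 bases, the longest among the members, so the ratio of 18.4 depends on that length. The largest shifts in fold change were in Rpl10, a protein that is among the last to join the large subunit, from -0.14 to 0.28 (SE 0.38), and in Rps27, from 0.18 to 0.44 (SE 0.19, adjusted p = 0.145). The Rpl10 family had 154 CPM in iD1 replicate 2 and 58.2 to 97.1 CPM in the other 5 libraries.

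Summed over all members, the ribosomal protein genes held 1.07%, 0.908% and 0.998% of the counts in vehicle replicates 1, 2 and the unnumbered replicate, and 0.924%, 0.985% and 0.907% in iD1 replicates 1 to 3. The means were 0.991% ± 0.0788 and 0.939% ± 0.0412 (SD, n = 3 each), and the groups overlapped. The pseudogene copies held 0.363% to 0.406% in vehicle and 0.354% to 0.408% in iD1. These copies include the members Rps12l1 and Rps3a2, so the shares of members and copies overlap and do not add up. The ratio of small to large subunit counts was 0.774 to 0.811 in vehicle and 0.781 to 0.799 in iD1, so the iD1 values lay inside the vehicle range.

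Most members shared the same low and high libraries. On the TMM scale, the median deviation of the members from their own mean (log2) was 0.01, -0.24 and 0.06 in vehicle and -0.08, 0.22 and 0.04 in iD1. Vehicle replicate 2 was the lowest library in 72 of 83 members and iD1 replicate 2 the highest in 60. Without vehicle replicate 2 the median log2 fold change of the members was 0.05, and without iD1 replicate 2 it was also 0.05. With library size alone, the same deviations were 0.16, -0.10 and 0.07 in vehicle and -0.07, 0.04 and -0.08 in iD1, and vehicle replicate 1 stood highest. The median coefficient of variation of a member was 11.8% in each group, beside 12.5% in vehicle and 14.5% in iD1 over all tested genes.

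**Figure D4:**
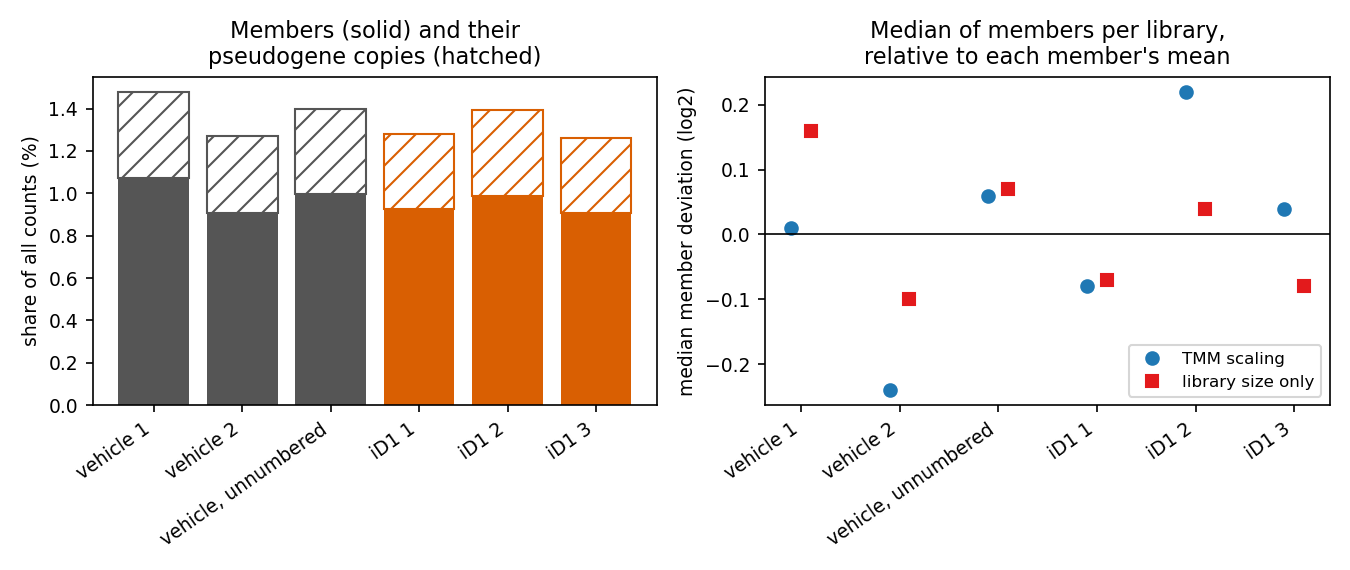
Left, share of all counts (y axis, percent) in the members (solid) and in their pseudogene copies (hatched) in each of the 6 libraries. The copies include the members Rps12l1 and Rps3a2, whose counts are therefore in both parts of a bar. Right, median log2 deviation of the members from their own mean in each library under TMM scaling (circles) and library size alone (squares); under TMM vehicle replicate 2 lies lowest, at -0.24, and iD1 replicate 2 highest, at 0.22.

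A scaling factor applies to all genes of a library, so a change of factors must move the ribosomal protein genes and all other genes by about the same amount. The median of the members minus that of all tested genes was 0.14 with TMM, 0.14 with DESeq2's size factors, 0.14 by upper-quartile factors, and 0.13 when only library size was used. The median of the members itself was 0.14, 0.14, 0.06 and -0.07. With trends of the fold change over GC content and length removed, this difference was 0.07, and it was 0.05 when vehicle replicate 2 was left out and 0.06 when iD1 replicate 2 was. Among the genes called across the table, 50.4% were higher with TMM, 38.4% by upper-quartile factors, and 24.1% when only library size was used.

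**Figure D5:**
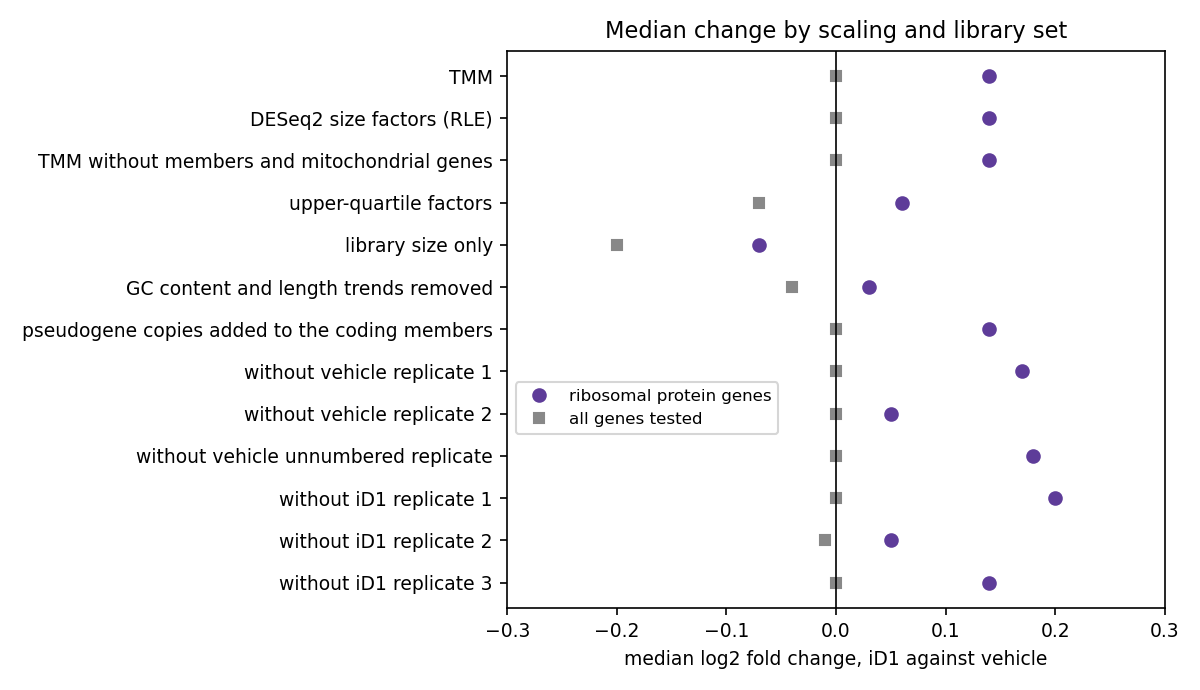
Median log2 fold change, iD1 against vehicle (x axis), of the ribosomal protein genes (circles) and of all tested genes (squares) under each scaling or set of libraries (y axis). The circles run from -0.07 with library size alone to 0.20 without iD1 replicate 1, and in every line shown they lie right of the squares. Lines that differ only in the scaling factors keep nearly the same distance by construction.

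Members with and without a pyrimidine run at their start had nearly the same median fold change. The 23 tested members with a run had a median log2 fold change of 0.14 (from -0.02 to 0.39), and the 37 other tested members with a promoter also had 0.14 (from -0.33 to 0.23). With Rpl7a, Rpl34 and Rpl19 counted as having a run, the medians were 0.15 over 26 tested members and 0.14 over 34. Among the windows shown above, Rps6 (0.11), Rps18 (0.15) and Rplp2 (0.39) all carry a run.

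Of 214 tested genes that act with the ribosomal proteins, from lists of known components, assembly factors and regulators, 29 were called (13.6%), 20 higher (9.35%) and 9 lower (4.21%), beside 16.7% called, 8.42% higher and 8.30% lower over all tested genes. Without 1 library the number was 17 (vehicle replicate 1), 16 (vehicle replicate 2), 10 (unnumbered vehicle replicate), 28 (iD1 replicate 1), 13 (iD1 replicate 2) and 11 (iD1 replicate 3).

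Many translation factors are TOP transcripts too. Elongation factors gave 1 higher and 1 lower of 9 tested (22.2% called, beside 16.7% of all tested genes), with a median of 0.19. Eef2, the translocase that moves the ribosome along the messenger RNA, had 693, 798 and 675 CPM in vehicle and 1030, 1120 and 1140 CPM in iD1, and every iD1 library was above every vehicle library. Its log2 fold change was 0.61 (SE 0.15, adjusted p = 0.0234 by edgeR). Leaving out vehicle replicate 1, the vehicle library without a number, or either of iD1 replicates 2 and 3 ended its call, with an adjusted p of up to 0.105, as did library size alone. Eef2k, the kinase that inactivates Eef2, had 7.78, 6.92 and 6.59 CPM in vehicle and 2.46, 3.07 and 3.62 CPM in iD1, a log2 fold change of -1.22 (SE 0.18, adjusted p = 0.00279).

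Initiation factors gave 3 higher and 0 lower of 41 (7.32% called, beside 16.7% of all tested genes), with a median of 0.14. Eif1, which guards start codon choice, rose from 147 ± 15.7 to 290 ± 24.7 CPM (SD, n = 3; log2 fold change 0.98, SE 0.14, adjusted p = 0.00217 by edgeR). Known TOP transcripts other than the members gave 3 higher and 0 lower of 18, with a median of 0.25. The share called was 16.7%, beside 16.7% of all tested genes. The 3 called TOP transcripts were Eef2, Pabpc1 and Eif3f, which the factor lists hold as well. Eif1 was the only initiation factor called when vehicle replicate 2, iD1 replicate 3 or the vehicle library without a number was left out. Of the TOP transcripts, none was called once iD1 replicate 3 or the unnumbered vehicle replicate was left out, and 1 was called when replicate 2 of either group or vehicle replicate 1 was. Scaling by library size alone left 0 of the 18 called, and DESeq2 called 5 of them and 7 initiation factors.

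Ribosome assembly and nucleolar factors gave 6 higher and 2 lower of 73 (11% called, beside 16.7% of all tested genes), with a median of 0.05. Rcl1, a processing factor of the small subunit RNA, rose from 60.9 ± 6.11 to 160 ± 34.0 CPM (log2 fold change 1.39, SE 0.17, adjusted p = 0.00109 by edgeR). Dkc1, the pseudouridine synthase of the nucleolus, fell from 14.6 ± 1.69 to 8.13 ± 0.462 CPM (log2 fold change -0.85, SE 0.13, adjusted p = 0.00351 by edgeR). This list held 4 called genes when vehicle replicate 1 was left out, and 3 when any of vehicle replicate 2, the vehicle library without a number, iD1 replicate 2 or iD1 replicate 3 was. It held 5 with library size alone. Chaperones and importers of ribosomal proteins gave 0 higher and 1 lower of 12 (8.33% called). This was the import receptor Kpnb1, with a log2 fold change of -0.61 (SE 0.12). RNA polymerase I and its factors, which make the large ribosomal RNAs, gave 0 higher and 1 lower of 15 (6.67% called). The lower gene was the terminator Ttf1 (log2 fold change -0.46, SE 0.13), whose call was lost without any 1 of the libraries.

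Regulators in the mTORC1 list gave 5 higher and 3 lower of 31 (25.8% called, beside 16.7% of all tested genes), with a median of 0.13. The number called was 4 when the vehicle library without a number was left out. It was 5 when vehicle replicate 1 or either of iD1 replicates 2 and 3 was left out. Sesn2, a leucine sensor that restrains mTORC1, had 3.29, 2.60 and 2.73 CPM in vehicle and 9.43, 10.8 and 15.2 CPM in iD1 (log2 fold change 2.04, SE 0.21). Ddit4, a stress-induced inhibitor of mTORC1, had 9.28, 12.5 and 10.9 CPM in vehicle and 36.3, 87.2 and 116 CPM in iD1 (log2 fold change 2.87, SE 0.44, adjusted p = 0.0108 by edgeR), and lost its call when iD1 replicate 2, vehicle replicate 1 or the vehicle library without a number was left out, with an adjusted p of up to 0.0515. Maf1, a repressor of RNA polymerase III, rose from 7.98 ± 1.82 to 14.4 ± 1.32 CPM, and Rps6ka1, a kinase that can phosphorylate Rps6, fell from 7.79 ± 0.436 to 4.39 ± 0.164 CPM. Besides Eef2k, given above, the remaining called gene that was lower was Mlst8 (log2 fold change -0.54, SE 0.16). Its call was kept only in the fit without iD1 replicate 2. The S6 kinase gene Rps6kb2 (0.43, SE 0.12) and Eif4ebp1 (0.61, SE 0.16), both named after their values were seen, were called higher.

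Ribosome quality control factors gave 3 higher and 1 lower of 20 (20% called, beside 16.7% of all tested genes). The number called was 0 when iD1 replicate 3 or the vehicle library without a number was left out, and 1 when replicate 2 of either group was. With upper-quartile factors 2 genes of this list were called, and with library size alone 1. The p53 and MDM2 branch gave 2 higher and 1 lower of only 6 tested (50% called). Nop53, which holds Rpl11 in the nucleolus, had 36.5, 36.2 and 32.7 CPM in vehicle and 56.9, 62.0 and 71.1 CPM in iD1 (log2 fold change 0.85, SE 0.12). Cdkn1a, the cell cycle inhibitor p21, had 2.30, 13.8 and 9.01 CPM in vehicle and 120, 96.1 and 81.8 CPM in iD1 (log2 fold change 3.55, SE 0.66, adjusted p = 0.0257 by edgeR). It kept its direction and lost its call when any iD1 library or the vehicle library without a number was left out, with an adjusted p of up to 0.0969, and the list then held 1 called gene. The called lower gene, Ccng1, fell from 26.7 ± 2.31 to 20.2 ± 1.36 CPM (log2 fold change -0.40, SE 0.12, adjusted p = 0.0431 by edgeR). Its call was lost without any 1 of the libraries. The rest of the list, named after the values were seen, was not called: Mdm2 (0.21), Trp53 (-0.13) and Mdm4 (-0.12). Of the 24 called genes that the naming rule selects, 9 were called in all 6 fits, namely Eef2k, Eif1, Rcl1, Dkc1, Kpnb1, Sesn2, Rps6ka1, Maf1 and Nop53. Host genes of small nucleolar RNAs were not analysed here.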

How the data were processed

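Livers of 3 vehicle and 3 iD1 samples were measured by stranded mRNA sequencing. The authors deposited 1 table of unscaled estimated counts, whose genes have versioned Ensembl identifiers; its aligner, quantifier, build and counting strand were not given in the sources used here. Symbols and positions came from GENCODE M21 (GRCm38), on which 93.4% of the versioned identifiers matched. Members and lists were chosen with earlier results of these data known.

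Estimated counts were rounded, genes kept by filterByExpr (minimum count 10, minimum total 15), libraries scaled by TMM, and groups compared by edgeR's two-sided quasi-likelihood F test (robust, edgeR 4.0.16, R 4.3.3) with Benjamini-Hochberg adjustment at 0.05. The script was tested on simulated data. A standard error is the size of the log2 fold change over the square root of F. CPM uses TMM-scaled library sizes. Level per length divides counts by the length of 1 annotated coding transcript and scales each library to the same total. An exact permutation test of 3 against 3 has a smallest p of 0.1, and models across all genes were therefore used. DESeq2 1.42.0 and limma-voom 3.58.1 were alternatives.

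Pseudogene copies were annotated pseudogene transcripts with at least 85% identity to a coding member over at least 70% of its length or their own (blastn), given to the best match; adding their counts was chosen after seeing the data, as was the wider definition of a pyrimidine run.

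Named members were called members, the 3 highest and 3 lowest per length, the extreme fold changes, paralogs with their parents, and textbook members; of each list, up to 3 called genes in each direction by smallest p, or 1 where none was called. Others are marked as chosen after their values were seen. Pairs of libraries of a group differed beyond sampling noise (chi-square per gene 38.5 to 95.4), so none was counted as a duplicate.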

Additional observations from a re-analysis of the deposited data

How the results depend on the processing

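The count of 0 called members held with DESeq2's size factors, upper-quartile factors, TMM computed without the members and mitochondrial genes, DESeq2, limma-voom, no filter on low counts, a filter of 50 counts in 3 libraries, no robust fit, an extended member list, scaling to the sum of members, and an adjusted p of 0.01. It was 1 (Rpl7l1, lower) with library size alone and 1 (Rpl7l1, lower) with GC and length trends removed, where the log2 fold change of Rpl7l1 was -0.41 and its adjusted p 0.0352. Without 1 library it ranged from 0 to 2 and the median from 0.05 to 0.20, while the genes called across the table ranged from 1212 to 2574 and the called pathway genes from 10 to 28. The median of the members was -0.07 with library size alone, and the sign of 66 of 83 fold changes was then opposite. Scaling to the member sum made 35.6% of the called genes higher. No called value changed direction. The cause of these shifts was not tested.

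The share of counts in the members was 1.13% in vehicle and 1.04% in iD1 without mitochondrially encoded genes, 1.45% and 1.32% without the 20 genes with the most counts, and 1.37% and 1.30% with pseudogene copies added; these follow from the changed sums. With the list extended it was 0.997% in iD1.

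With the replicate number as a block, only the libraries numbered 1 and 2 could enter. This replicate block called 0 members, 768 genes and 5 pathway genes, from 4 libraries. Deviations of same-numbered libraries correlated at 0.169 for number 1 and -0.127 for number 2, so the numbers were not taken to pair the samples.

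Of the 89 members, 6 had too few counts to be tested, from 2 (Rpl39l) to 52 (Rps3a3) in all libraries together. Rps3a2 was tested with 92 counts and had a wide interval (SE 1.38). What set the width of the other intervals was not tested.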
